A study of Homo sapiens with 3 samples.

Results

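The 39 genes described here encode inflammatory cytokines and chemokines, the NF-kB factors and feedback proteins that act around them, and further secreted proteins often named in the secretome of senescent cells. They were taken by gene symbol from a table of RNA counts, in which all 39 were found among 57736 gene rows, CXCL8 under its older name IL8. The RNA came from TOV21G, an established human line from an ovarian clear cell carcinoma whose ARID1A gene is mutated in every group. One library was made from wild-type cells (WT) and 2 from HDAC2 knockdown cells, which had received a lentivirus carrying a short hairpin RNA against HDAC2, a class I histone deacetylase. The knockdown libraries, shRNA 1 and shRNA 2, each stand for 1 hairpin. The labels do not say whether WT cells received any virus, so the hairpin and the transduction cannot be told apart. Nor do they say that more than 1 culture was used per group. The p-values rest on the spread between the 2 knockdown libraries and on a fit across all genes. No spread among WT cells enters them.

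NF-kB is a family of dimeric transcription factors, among them RELA, RELB and the products of NFKB1 and NFKB2, that inhibitors such as IkB-alpha (NFKBIA) hold in the cytoplasm. Signals from receptors for TNF or interleukin-1 (IL-1) free them to enter the nucleus, where they switch on chemokine and cytokine genes together with their own inhibitors. Senescent cells release many of the same proteins, along with proteases and binding proteins for insulin-like growth factors, a mixture called the senescence-associated secretory phenotype. Histone deacetylases are known to take part in silencing such genes.

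The libraries held 10138479 (WT), 11398791 (shRNA 1) and 11225492 (shRNA 2) counts. Values are counts scaled to library size (CPM, with TMM factors), and a count of 0 allows up to 3 counts, which is 0.262 to 0.301 CPM. HDAC2 was at 105 CPM in WT, 33.4 CPM with shRNA 1 and 51.6 CPM with shRNA 2, a log2 change of −1.31 ± 0.20 (SE; adjusted p = 4.82e-04, edgeR's quasi-likelihood test, described below). Of 7 tested clear cell carcinoma markers 0 passed edgeR's test, and 0 by DESeq2. Only 1 fell at an unadjusted p below 0.05 (14.3%, against 23.5% of all genes in either direction). NAPSA was near 0 (1, 4 and 1 counts). The 8 leukocyte markers summed to between 1.24 and 3.91 CPM, with CD3E at 0, and the 4 endothelial markers to at most 0.872 CPM, with KDR and CLDN5 at 0. The 7 fibroblast markers summed to 15.7 CPM in WT, 24.3 CPM with shRNA 1 and 38.7 CPM with shRNA 2, mostly COL1A2 and COL1A1, while COL3A1, LUM and FAP were at 0. COL1A2 passed the test (87, 220 and 335 counts in WT, shRNA 1 and shRNA 2), and its part in the results was not tested.

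The chemokine genes CXCL8, CXCL1, CXCL5, CXCL3 and CXCL2 lie within 358.8 kb of chromosome 4 (73740506 to 74099293, GRCh38, GENCODE release 29), so their promoters are shown for the 3 closest relatives, followed by the promoters of the 2 genes that passed the test below. The sequences are RefSeq's (GRCh38.p14), each the 250 bases before the start of the gene, read 5′ to 3′ along the gene's strand, with matches to the kappa B motif, the consensus that NF-kB binds, in capitals. For CXCL2, CXCL3, IL1R1 and SERPINE2 the RefSeq start lies inside the longer span that GENCODE gives the gene.
CXCL1 (chr4:73869143-73869392, plus strand): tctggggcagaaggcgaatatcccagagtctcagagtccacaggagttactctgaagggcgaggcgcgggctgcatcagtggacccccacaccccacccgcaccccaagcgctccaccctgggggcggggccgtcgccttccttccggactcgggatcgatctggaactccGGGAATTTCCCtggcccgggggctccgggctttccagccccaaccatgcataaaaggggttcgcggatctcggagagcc
CXCL2 (chr4:74099196-74099445, minus strand): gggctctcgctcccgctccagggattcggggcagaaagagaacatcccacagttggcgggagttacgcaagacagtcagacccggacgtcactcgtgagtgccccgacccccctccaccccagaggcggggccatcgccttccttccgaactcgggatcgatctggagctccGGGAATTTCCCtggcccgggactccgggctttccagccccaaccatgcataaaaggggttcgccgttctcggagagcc
CXCL3 (chr4:74038690-74038939, minus strand): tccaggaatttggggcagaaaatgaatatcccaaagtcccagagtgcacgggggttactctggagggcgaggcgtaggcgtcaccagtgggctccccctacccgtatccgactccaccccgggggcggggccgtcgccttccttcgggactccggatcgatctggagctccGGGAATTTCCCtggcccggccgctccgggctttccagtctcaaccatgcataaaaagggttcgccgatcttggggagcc
IL1R1 (chr2:102104354-102104603, plus strand): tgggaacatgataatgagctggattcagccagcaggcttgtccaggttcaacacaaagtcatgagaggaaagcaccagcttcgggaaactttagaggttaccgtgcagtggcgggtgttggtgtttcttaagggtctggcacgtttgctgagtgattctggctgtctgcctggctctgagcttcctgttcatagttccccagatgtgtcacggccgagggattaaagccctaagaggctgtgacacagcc
SERPINE2 (chr2:224031479-224031728, minus strand): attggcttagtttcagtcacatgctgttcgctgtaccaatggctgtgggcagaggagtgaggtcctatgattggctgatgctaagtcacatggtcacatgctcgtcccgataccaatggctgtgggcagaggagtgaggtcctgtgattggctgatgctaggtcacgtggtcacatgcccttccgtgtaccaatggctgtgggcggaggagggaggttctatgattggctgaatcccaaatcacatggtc
In the CXCL1, CXCL2 and CXCL3 promoters, and in that of CXCL5, the same 10 letters, GGGAATTTCC, matched the motif on the gene's strand, starting 79, 78, 79 and 91 bases before the start. A second match on the opposite strand, shifted by 1 base, overlaps each of them and widens the capitals. Positions are from the RefSeq start, and for CXCL2 and CXCL3 the matches lie within the GENCODE span of the gene. In global alignments, the CXCL1 and CXCL3 promoters were 81.4% identical, CXCL2 and CXCL3 73.3%, and CXCL1 and CXCL2 67.9%.

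Promoter sequences were matched for 29 of the 39 genes. CCL2, CX3CL1, IL18, LIF, CSF1, CSF3, RELB, MMP1, MMP3 and IGFBP7 were not among them. Searched on both strands, the kappa B motif was present in 12 of the 29 (41.4%), against 5.21% of 34796 promoters of the same length. Besides the 4 chemokine genes above, the 12 were CCL20, IL6, IL32, NFKB1, NFKBIA, TNFAIP3, IGFBP5 and IGFBP6. The motif of the factor AP-1, TGANTCA, was present in 4 of the 29 (13.8%: CXCL8, IL1A, IL11 and PLAUR), against 6.59% of all promoters, and overlapped no kappa B match. The genes had been listed as cytokine and NF-kB genes, so a high share of kappa B matches is a property of the list. A match describes letters only, and none was found in the IL1R1 and SERPINE2 windows.

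Of the 39 genes, 33 had enough counts to be tested. Knockdown was compared with WT to see which of them differ once HDAC2 is depleted. With Benjamini-Hochberg adjustment over all 14524 genes tested, edgeR's quasi-likelihood test found that 2 rose (6.06%), IL1R1 and SERPINE2, against 3.96% of all genes that rose. None of the 33 passed downwards, against 3.76% of all genes. At an unadjusted p below 0.05, 8 were higher and 2 lower (30.3%, against 23.5% of all genes). By DESeq2's Wald test 0 passed in either direction, against 151 higher and 155 lower over all genes. DESeq2 gave no adjusted p for CXCL8, CXCL3, CCL20, CX3CL1, IL1R1, LIF, CSF1, RELB, IGFBP4, IGFBP5, IGFBP6 and PLAUR, so these could not pass. The median log2 change was 0.11 for the 33 genes and 0.01 for all genes tested, or 0.23 and 0.01 with a GC trend removed. The share that passed was thus near the background. The hairpin libraries serve as replicates in this test, so a gap between them adds to the error and makes a pass less likely. Over all genes 575 rose and 546 fell, a split that turned to 101 and 178 with a GC trend removed. In bulk RNA, fewer cells making a transcript and less of it per cell cannot be told apart.

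**Figure D1:**
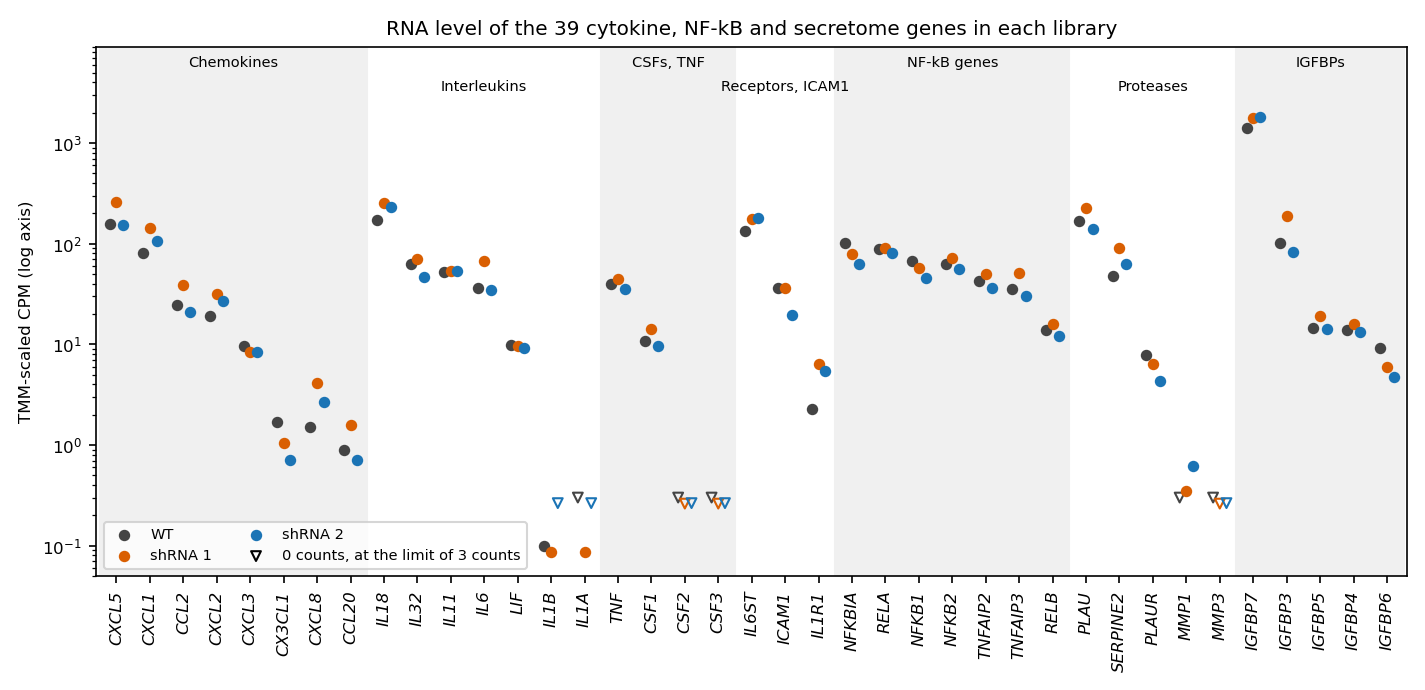
RNA level of each of the 39 genes, as TMM-scaled CPM on a log axis, in the WT library (grey), the shRNA 1 library (orange) and the shRNA 2 library (blue), grouped by role. Triangles stand at the limit of 3 counts for libraries with 0 counts. IGFBP7 is highest in every library, between 1421 and 1832 CPM, and CSF2, CSF3 and MMP3 have 0 counts throughout.

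A different pattern appeared between the hairpins. In 31 of the 33 genes the RNA was higher with shRNA 1 than with shRNA 2, against 49.8% of all genes tested. The difference was at least 0.5 on the log2 CPM scale in 13 of the 33 (39.4%), against 7.48% of all genes, and reached 0.5 in the other direction in 0. Restricted to mean counts of 50 or more, it was 28 of 30 higher with shRNA 1, against 50.1%, and 11 of 30 by at least 0.5, against 3.77%. The median difference of the 33 was 0.42, against −0.001 for all genes. Compared with the same WT library, 26 of the 33 were higher with shRNA 1 and 24 were lower with shRNA 2. The median difference from WT was 0.33 with shRNA 1 and −0.16 with shRNA 2, against 0.01 and −0.004 for all genes. In 17 (51.5%) the hairpins fell on opposite sides of WT, each time with shRNA 1 above and shRNA 2 below, against 11.1% of all genes. Some of these sides were practically level with WT, such as ICAM1 with shRNA 1 (0.004) and CXCL5 with shRNA 2 (−0.007).

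Both libraries exceeded WT in 9 genes (27.3%, against 39.9% of all genes), and both were below it in 7 (21.2%, against 39.3%). Each hairpin is 1 library, so this difference has no replicate check and no test, and hairpin, culture and library preparation cannot be told apart. The genes were also chosen with earlier results of these data known, so the contrast with all genes is not independent of that choice. HDAC2 RNA was lower with shRNA 1, the library with the higher levels of these genes. The part of HDAC2 in this difference was not tested.

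**Figure D2:**
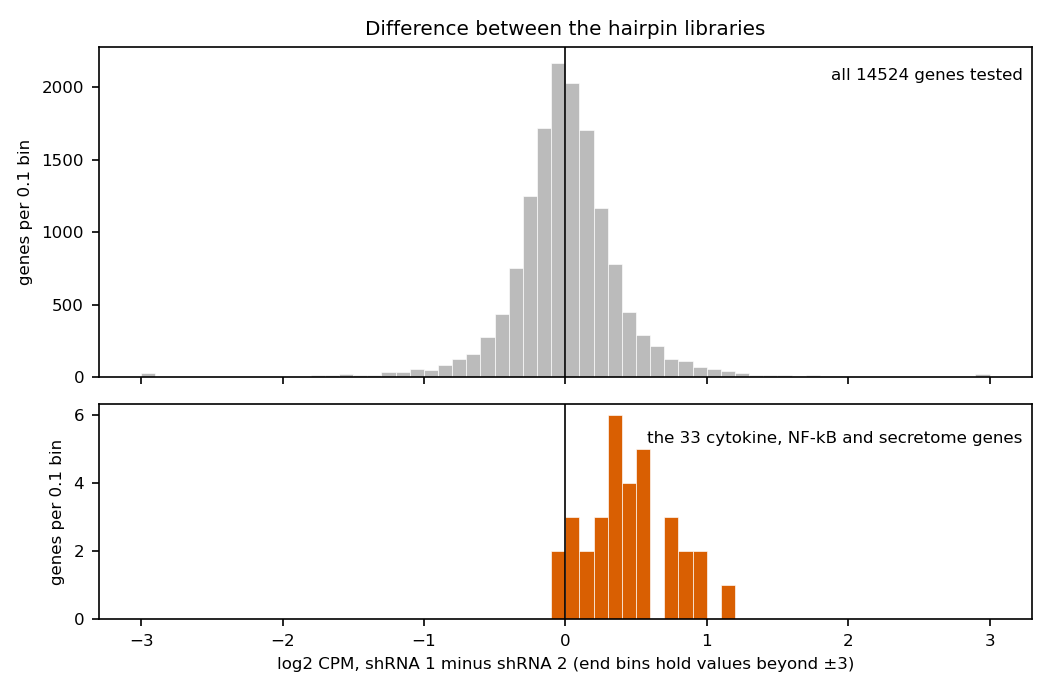
Number of genes per 0.1-wide bin of the difference in log2 CPM between the shRNA 1 and shRNA 2 libraries, for all 14524 genes tested (top) and for the 33 cytokine, NF-kB and secretome genes (bottom). The top distribution is centred near −0.001, whereas 31 of the 33 genes lie to the right of 0, up to 1.16.

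**Figure D3:**
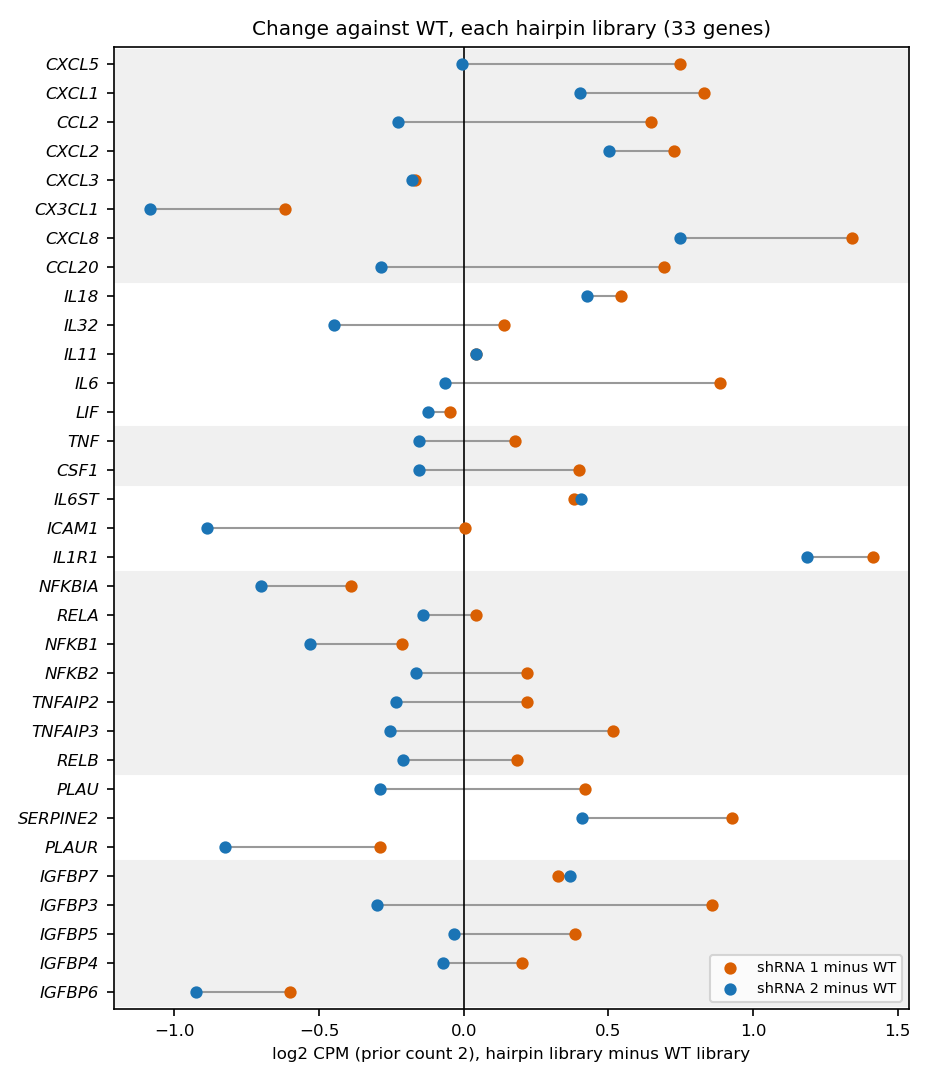
Difference in log2 CPM (prior count of 2) from the WT library for shRNA 1 (orange) and shRNA 2 (blue), 1 row per tested gene and grouped by role from chemokines at the top to IGFBP genes at the bottom. In 17 rows the line joining the points crosses 0, each time with shRNA 1 on the right, and IL6ST and IGFBP7 are the 2 rows where shRNA 2 lies further right.

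Chemokines are small secreted proteins that attract leukocytes. CXCL5, a neutrophil attractant, stood at 156 CPM in WT, 261 CPM with shRNA 1 and 155 CPM with shRNA 2. Only the shRNA 1 library stood above WT, and the fitted log2 change was 0.42 ± 0.23 (SE), which missed the threshold and was 0.11 with the GC trend removed. The ratio of shRNA 1 to shRNA 2 was 1.69, with a 95% exact binomial interval of 1.59 to 1.79 that covers counting error only, as do all such intervals here. CXCL1, which binds the same receptor, had 80.5 CPM in WT, 143 CPM with shRNA 1 and 106.5 CPM with shRNA 2. Both hairpin libraries were above WT, and the log2 change of 0.63 ± 0.20 (SE) missed the threshold (adjusted p = 0.0513, edgeR's quasi-likelihood test). CXCL2, a close relative, had 19.1, 31.7 and 27.1 CPM in WT, shRNA 1 and shRNA 2, and a log2 change of 0.62 ± 0.21 (SE; adjusted p = 0.0772, same edgeR test). With scaling by library size alone both passed (adjusted p = 0.0192 for CXCL1 and 0.0447 for CXCL2, edgeR), whereas under the other alternatives CXCL1 ranged from 0.0642 to 0.494 and CXCL2 from 0.0867 to 0.468.

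CXCL3, whose promoter was 81.4% identical to that of CXCL1 and 73.3% to that of CXCL2, did not share these higher values. It had 9.53 CPM in WT, 8.46 CPM with shRNA 1 and 8.40 CPM with shRNA 2. The log2 change was −0.18 ± 0.26 (SE), or −0.10 with the GC trend removed. Of the sequences of 75 bases, the read length, in the transcripts of a gene, 4.6% for CXCL3, 7.1% for CXCL2 and 0.2% for CXCL1 also occur in other genes, so few reads could be divided between them. CXCL8, the gene of interleukin-8, was far lower, with 15 counts in WT, 47 with shRNA 1 and 30 with shRNA 2. Its log2 change, 1.16 ± 0.52 (SE), did not pass (adjusted p = 0.180, edgeR's quasi-likelihood test) and was 0.70 with the GC trend removed.

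Of the other protein-coding genes between CXCL8 and CXCL2 on chromosome 4, CXCL6 had 16, 9 and 19 counts and PPBP 8, 8 and 16 in WT, shRNA 1 and shRNA 2, and PF4 and PF4V1 had 0 in all libraries. CXCL6 and PPBP, both neutrophil attractants, were too low to place.

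CCL2, which attracts monocytes, was at 24.6 CPM in WT, 38.65 CPM with shRNA 1 and 21.0 CPM with shRNA 2. The shRNA 1 library stood apart and the other lay below WT, a ratio between hairpins of 1.84 (1.57 to 2.17). CCL20, with 9, 18 and 8 counts, and the membrane-bound chemokine gene CX3CL1, with 17, 12 and 8 counts, were likewise too low. Summed over the 8 chemokines, the level was 293 CPM in WT, 490.0 CPM with shRNA 1 and 322 CPM with shRNA 2. By edgeR 0 of the 8 passed. An unadjusted p below 0.05 was found for 37.5% of them (3 higher and 0 lower), against 23.5% of all genes. DESeq2 also passed 0, but gave no adjusted p for CXCL8, CXCL3, CCL20 and CX3CL1.

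Among interleukins, IL6 differed most between the hairpins. This gene encodes the cytokine that signals through the receptor chain gp130, and its level was 36.5 CPM in WT, 67.7 CPM with shRNA 1 and 34.9 CPM with shRNA 2. With shRNA 2 it was 95.7% of WT and with shRNA 1 185%, a ratio of 1.94 (1.72 to 2.19). The knockdown mean was 51.3 ± 23.2 CPM (SD, n = 2), with a log2 change of 0.49 ± 0.26 (SE; not passed). An antisense neighbour overlaps 20.7% of the exon bases of IL6, and the sources used here do not state if reads were counted by strand.

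IL11 and LIF, ligands of the same receptor chain, showed no such gap. IL11 had 52.2, 53.7 and 53.7 CPM in WT, shRNA 1 and shRNA 2, a log2 change of 0.04 ± 0.17 (SE). LIF had 9.93, 9.60 and 9.11 CPM, a change of −0.09 ± 0.26 (SE). With the GC trend removed these changes were 0.24 and 0.13, the latter with its sign turned. Neither library of either gene left the WT level by more than 0.13 on the log2 scale.

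IL18, an IL-1 family cytokine, was higher than WT with both hairpins, at 173 CPM in WT, 252 CPM with shRNA 1 and 232 CPM with shRNA 2. The log2 change was 0.49 ± 0.17 (SE), which did not pass (adjusted p = 0.0907, edgeR's quasi-likelihood test) and was 0.22 with the GC trend removed. IL32, a cytokine-like protein, had 63.5, 70.0 and 46.5 CPM, with the hairpins on either side of WT. The classical IL-1 genes were all but silent, with 0, 1 and 0 counts of IL1A and 1, 1 and 0 counts of IL1B in WT, shRNA 1 and shRNA 2.

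Colony-stimulating factors instruct myeloid cells. CSF2 and CSF3 had 0 counts in all 3 libraries, which allows up to 0.301 CPM in WT. CSF1, the macrophage factor, had 10.7, 14.2 and 9.64 CPM in WT, shRNA 1 and shRNA 2. TNF, the cytokine that gives the NF-kB response its best known trigger, had 39.4, 44.7 and 35.4 CPM, a log2 change of 0.02 ± 0.19 (SE), or 0.19 with the GC trend removed. For CSF1 and TNF alike, WT lay between the hairpin libraries.

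The receptor for IL-1, IL1R1 (ENSG00000115594, chromosome 2 from 102064544 to 102179874, GRCh38), showed the largest change of the set. It rose from 2.31 CPM (23 counts) in WT to 6.46 CPM (74 counts) with shRNA 1 and 5.48 CPM (62 counts) with shRNA 2. Both knockdown libraries were more than 2-fold above WT and close to each other, with a mean of 5.97 ± 0.69 CPM (SD, n = 2). Fitted on the log2 scale, the rise was 1.37 ± 0.40 (SE; adjusted p = 0.0381, edgeR's quasi-likelihood test). The call was lost once a trend with the GC content of transcripts was removed (log2 change 1.27, adjusted p = 0.132) and with no filter on low counts (adjusted p = 0.468), and over the alternatives the adjusted p by edgeR ranged from 0.0205 to 0.468. DESeq2 gave no adjusted p for this gene.

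IL6ST, which encodes gp130, had 135, 176 and 178 CPM in WT, shRNA 1 and shRNA 2. The hairpin libraries lay together above WT, and the log2 change of 0.39 ± 0.17 (SE) did not pass and was 0.03 with the GC trend removed. ICAM1, an adhesion molecule for leukocytes and a well known NF-kB target, had 36.1 CPM in WT, 36.2 CPM with shRNA 1 and 19.5 CPM with shRNA 2. It was level with WT under shRNA 1 and at 53.9% of it under shRNA 2, a ratio between hairpins of 1.86 (1.58 to 2.20), and antisense neighbours overlap 23.6% of its exon bases.

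None of the NF-kB subunit genes passed the edgeR test. RELA, the main activating subunit, had 88.4 CPM in WT, 91.0 CPM with shRNA 1 and 80.2 CPM with shRNA 2. RELB had 14.05, 16.0 and 12.1 CPM, and NFKB2 62.3, 72.5 and 55.5 CPM in the same order. In these 3 genes WT lay between the hairpin libraries, and the log2 changes were −0.05 ± 0.17, 0.00 ± 0.24 and 0.04 ± 0.19 (SE), or 0.175, 0.33 and 0.33 with the GC trend removed, which turned the sign for RELA and RELB. NFKB1, the gene of p105 and p50, was lower than WT with both hairpins, at 66.7, 57.5 and 46.1 CPM (log2 change −0.36 ± 0.18, SE). By edgeR 0 of the 7 genes of this group passed. An unadjusted p below 0.05 was found for 14.3% of them (0 higher and 1 lower), against 23.5% of all genes. DESeq2 also passed 0, but gave no adjusted p for RELB.

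The feedback genes did not move as one. NFKBIA, the inhibitor that NF-kB itself induces, had 103 CPM in WT, 78.4 CPM with shRNA 1 and 63.1 CPM with shRNA 2. Both knockdown libraries were below WT, and the log2 change of −0.54 ± 0.18 (SE) did not pass (adjusted p = 0.0665, edgeR's quasi-likelihood test). TNFAIP3, the gene of the ubiquitin-editing inhibitor A20, had 35.8, 51.3 and 30.0 CPM, with a ratio between hairpins of 1.71. TNFAIP2, another TNF-induced gene, had 42.6, 49.6 and 36.3 CPM. NFKBIA was thus below WT in both hairpin libraries while the TNF-induced genes lay on either side of it.

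SERPINE2 (ENSG00000135919, chromosome 2 from 223975112 to 224039319, GRCh38), an inhibitor of thrombin and urokinase, was the other gene that rose. It had 47.35 CPM in WT, 90.1 CPM with shRNA 1 and 62.9 CPM with shRNA 2, a mean of 76.5 ± 19.3 CPM (SD, n = 2). Both libraries exceeded WT, at 190% and 133% of its level, and the fitted rise on the log2 scale was 0.69 ± 0.20 (SE; adjusted p = 0.0429, edgeR's quasi-likelihood test). That call was close to the threshold and was lost under 6 of the 8 alternatives with a test, over which the adjusted p ranged from 0.0133 to 0.508. With the GC trend removed the log2 change was 0.49 (adjusted p = 0.337, edgeR).

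Urokinase and its receptor together start plasmin formation at the cell surface, and the gene of neither passed edgeR's test. PLAU, the gene of urokinase, had 169.7 CPM in WT, 227 CPM with shRNA 1 and 139 CPM with shRNA 2. Only its shRNA 1 library lay above WT. PLAUR had 78, 73 and 49 counts, both hairpin libraries being lower than WT (log2 change −0.55 ± 0.32, SE, or −0.35 with the GC trend removed). The overlap of PLAU with an antisense gene covers 31.1% of its exon bases. Collagenase and stromelysin, standard members of the secretome of senescent fibroblasts, were hardly present, since MMP3 had 0 counts in every library and MMP1 had 0 in WT, 4 with shRNA 1 and 7 with shRNA 2.

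Most insulin-like growth factor binding proteins carry IGF1 and IGF2 and modulate their signalling. IGFBP7 had the highest level of the set per length of transcript, 996 CPM per kb in WT against 102 for IL18, 73.3 for CXCL1 and 66.0 for NFKBIA, the next in order, with PLAU and CXCL5 at 63.9 and 61.3. Its levels of 1421, 1782 and 1832 CPM in WT, shRNA 1 and shRNA 2 gave a log2 change of 0.35 ± 0.14 (SE; not passed). It was one of the 2 genes not higher with shRNA 1, and 18.9% of its exon bases overlap other genes on the opposite strand.

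IGFBP3, itself a p53 target and a regulator of IGF availability, differed most between the hairpins of all 33 genes. It had 103 CPM in WT, 186.5 CPM with shRNA 1 and 83.5 CPM with shRNA 2, a ratio of 2.23 (2.07 to 2.42). One hairpin library lay above WT and the other below, and the log2 change of 0.39 ± 0.28 (SE) did not pass. IGFBP5, with 146, 220 and 162 counts, and IGFBP4, with 139, 184 and 150 counts, were also on both sides of WT in CPM. IGFBP6 had 92, 69 and 54 counts and was below WT in both, with a log2 change of −0.77 ± 0.30 (SE; adjusted p = 0.121, edgeR's quasi-likelihood test) that was −0.46 with the GC trend removed.

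**Figure D4:**
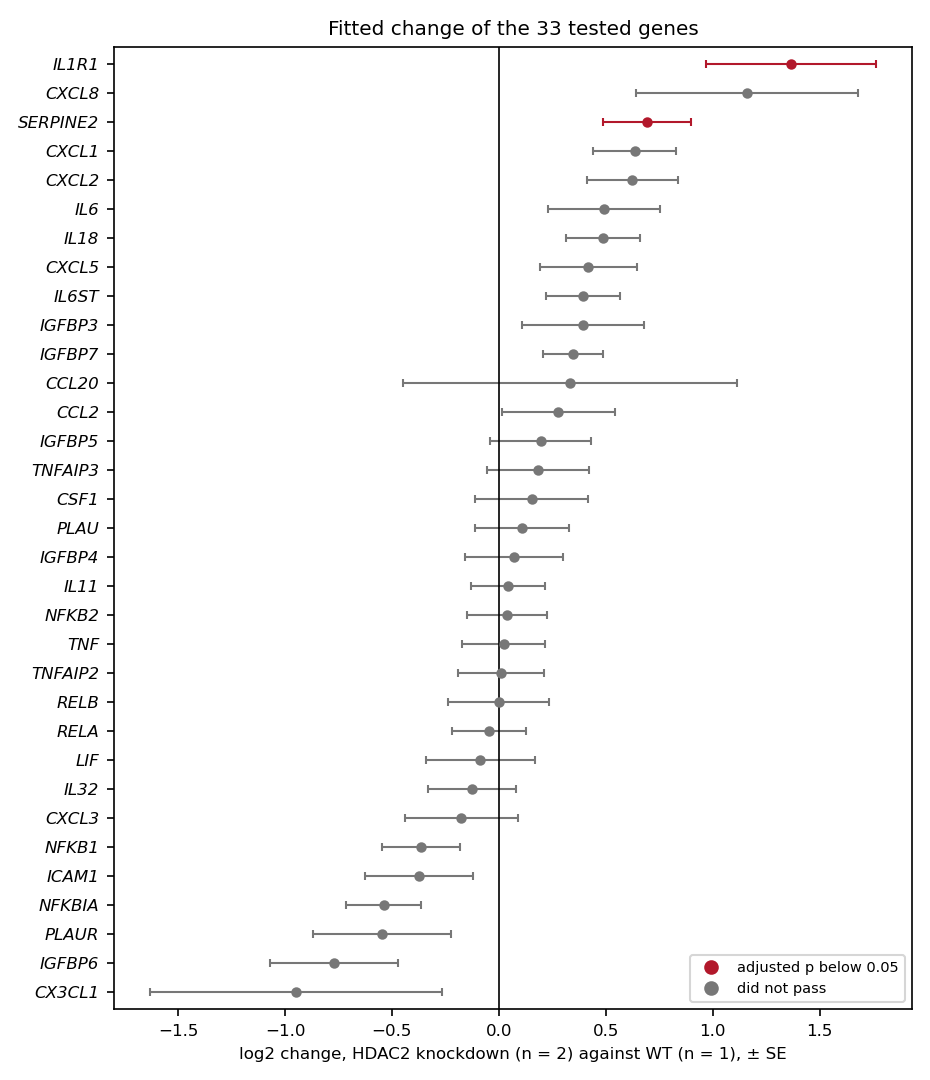
Fitted log2 change between knockdown (2 libraries) and WT (1 library) for the 33 tested genes, sorted by size, with bars of 1 SE. IL1R1 (1.37) and SERPINE2 (0.69), in red, passed the test, and the genes in grey did not.

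The wider pathway was described with 5 lists of genes that are not among the 39. Of 34 genes of NF-kB activation and feedback, 1 rose and 2 fell (8.82%, against 7.72% of all genes in either direction), with a median log2 change of −0.20. At an unadjusted p below 0.05, 5 were higher and 7 lower (35.3%, against 23.5% of all genes), and by DESeq2 0 passed in either direction. BCL3, an IkB protein that binds p50 and p52 in the nucleus, fell from 30.5 CPM in WT to 14.7 CPM with shRNA 1 and 12.7 CPM with shRNA 2 (log2 change −1.15 ± 0.21, SE; adjusted p = 0.00207, edgeR's quasi-likelihood test). TRAF2, an adaptor of the TNF receptor, fell from 11.9 to 4.89 and 6.90 CPM (−1.02 ± 0.29, SE). BIRC2, a ubiquitin ligase of the same receptor complex, rose from 88.3 to 151.7 and 123.8 CPM (0.64 ± 0.18, SE). All 3 calls were lost with the GC trend removed (log2 changes −0.80, −0.73 and 0.34; adjusted p = 0.0629, 0.254 and 0.421, edgeR) and with no filter. DESeq2's Wald test did not pass BCL3 (adjusted p = 0.0535) or BIRC2 (0.108) and gave no adjusted p for TRAF2. In this list 20 of 34 genes were higher with shRNA 1 than with shRNA 2 (58.8%, against 49.8% of all genes).

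Of 24 tested genes of other secreted or shed proteins named in senescence-type secretomes, 3 rose and 1 fell (16.7%, against 7.72% of all genes), with a median log2 change of 0.13. At an unadjusted p below 0.05, 3 were higher and 3 lower (25%, against 23.5% of all genes), and by DESeq2 2 were higher and 1 lower. GDF15, a stress-induced cytokine, rose from 77.5 CPM in WT to 160.4 CPM with shRNA 1 and 118 CPM with shRNA 2 (0.85 ± 0.20, SE; adjusted p = 0.0125, edgeR's quasi-likelihood test). SPP1, the gene of osteopontin, rose from 727 to 1136 and 1093 CPM (0.61 ± 0.15, SE; adjusted p = 0.0176, same edgeR test). FAS, a death receptor, rose by 0.59 ± 0.17 (SE) on the log2 scale (adjusted p = 0.0419, edgeR's quasi-likelihood test). That call was lost under 6 of the 8 alternatives, with adjusted p-values from 0.0506 to 0.468 by edgeR or DESeq2 in those 6. MIF, macrophage migration inhibitory factor, fell from 639 to 443 and 351 CPM (−0.69 ± 0.17, SE), although 61.9% of its exon bases overlap an antisense gene and 26.0% of its read-length sequences are shared, so its value is uncertain. Of these 4, GDF15 kept its call with the GC trend removed, whereas SPP1, FAS and MIF did not (adjusted p = 0.158, 0.360 and 0.302, edgeR), and with no filter all 4 were lost. In this list 17 of 24 genes (70.8%, against 49.8% of all genes) were higher with shRNA 1 than with shRNA 2.

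Receptors for the ligands were partly absent, with IL18R1, IL18RAP, CXCR1, CXCR2 and CCR2 at 0 counts in all libraries. CXCR1 and CXCR2 are the receptors of CXCL1, CXCL5 and CXCL8. Of the 8 receptor genes tested by edgeR 0 passed, and 0 by DESeq2. An unadjusted p below 0.05 was found for 37.5% of them (2 higher and 1 lower), against 23.5% of all genes. Of the 8, 7 were higher with shRNA 1 than with shRNA 2 (87.5%, against 49.8% of all genes). LIFR, a partner of gp130, was the highest above WT of those with a mean count over 50, at a log2 change of 0.52 ± 0.19 (SE), and TNFRSF1A, the main TNF receptor, was at −0.48 ± 0.17 (SE). For the JAK-STAT relay below gp130, edgeR passed 0 of 10, and DESeq2 0. In this relay 1 gene was higher and 1 lower at an unadjusted p below 0.05 (20%, against 23.5% of all genes). With shRNA 1, 4 of 10 were higher than with shRNA 2 (40%, against 49.8% of all genes). The median of the relay was 0.07, with STAT3 at −0.01 ± 0.18 (SE) and the feedback inhibitor gene SOCS3 at −0.66 ± 0.41 (SE). Of 9 genes that process or antagonise IL-1 family cytokines 3 could be tested, and 0 passed by edgeR or DESeq2. Of these 3, 1 was higher and 1 lower at an unadjusted p below 0.05 (66.7%, against 23.5% of all genes). CASP5, PYCARD and AIM2 were at 0 counts. In the receptor, relay and IL-1 lists, genes with low counts can lack an adjusted p by DESeq2, and such genes could not pass.

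**Figure D5:**
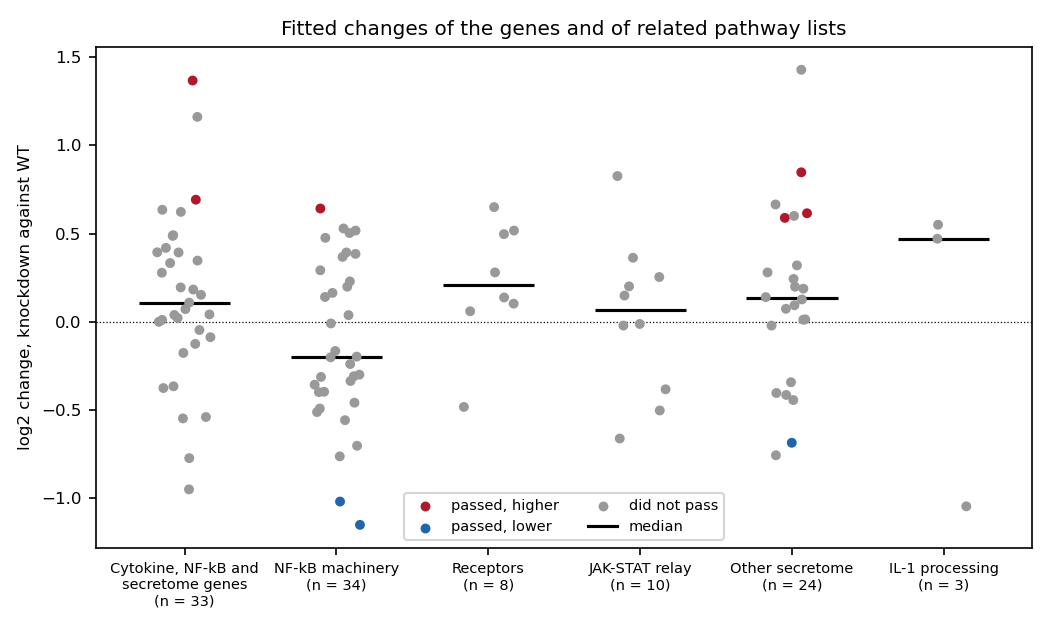
Fitted log2 change between knockdown and WT for each tested gene (points) of the cytokine, NF-kB and secretome set and of 5 related lists, with the median of each as a black line. Points that passed are red (higher) or blue (lower), and the medians lie between −0.20 for the NF-kB machinery and 0.47 for the 3 genes of IL-1 processing.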

How the data were processed

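RNA of 3 libraries was measured by sequencing reads of 75 bp. The authors deposited 1 table in which each Ensembl gene has its estimated count. The values were whole already, so rounding changed 0 of them. RSEM 1.2.3, edgeR and hg19 are named in the submitters' processing notes, with no statement of which step each did. The sources used here state neither the gene annotation nor the use of strand. RSEM divides ambiguous reads by a model, which affects genes with close copies. Members were matched by symbol or Ensembl ID.

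Knockdown (n = 2) was compared with WT (n = 1) by edgeR's quasi-likelihood test (edgeR 4.0.16, R 4.3.3) with TMM scaling, filterByExpr at its defaults, Benjamini-Hochberg adjustment over all 14524 genes tested and a threshold of 0.05. The fit has 1 residual degree of freedom and a prior of 18.9, so the single WT library has to be taken to vary like the knockdown libraries. Standard errors (SE) come from the change and its F statistic. Single-hairpin values are log2 CPM with a prior count of 2. In simulated data with 14524 genes, 67 were changed 1.5-fold, 67 2-fold and 66 4-fold. Of these, 16.4%, 52.2% and 92.4% were recovered, with 3 unchanged genes called. The real data had 1121 genes called, and adjusted p-values depend on how many genes change, so these rates need not hold for the real comparison. DESeq2 1.42.0 was an alternative test. It was run with independent filtering, which can leave genes with low counts without an adjusted p, and such genes cannot pass. This holds for the pathway lists and cell type markers as well. The GC trend was a spline with 4 degrees of freedom on transcript GC content, known for 97.2% of genes tested.

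Gene lengths, positions, overlaps and shared 75-base sequences are from GENCODE release 29 (GRCh38), while the table itself gives no coordinates. Levels per kb use each gene's longest transcript. The 39 genes and the lists were chosen with earlier results of these data known. Named genes were HDAC2, the 39 genes and, of each list, up to 3 that rose and up to 3 that fell with a mean count of at least 50, others being named after their values were seen. The CXCL promoters were also chosen after values were seen. Of the list genes, PECAM1 was not analysed here, and 3 were found by ID under another symbol (STAT3, OTULIN and TNFRSF10C).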

Additional observations from a re-analysis of the deposited data

How the results depend on the processing

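The alternatives were scaling by DESeq2 size factors, library size alone or upper quartile, no filter, DESeq2's Wald test, a minimum mean count of 50, removal of the GC trend, and the sum of CXCL1, CXCL2 and CXCL3. Of the 39 genes, 2 rose; 1 rose with DESeq2 size factors, with upper quartile scaling and with a mean count of at least 50, 4 with library size alone, and 0 with no filter, DESeq2's Wald test or the GC trend removed. The cause was not tested. In none of these did any of the 39 pass downwards. Over all genes 575 rose and 546 fell by edgeR; 868 rose with library size alone, 0 and 0 passed with no filter (2486 at an unadjusted p below 0.05), 151 and 155 by DESeq2's Wald test, and 101 and 178 with the GC trend removed. Genes higher with shRNA 1 than with shRNA 2, counted under settings chosen after seeing the data, numbered 31 of 33 and between 28 of 30 and 30 of 33 otherwise, with 29 of 33 when the GC trend was removed. Small changes, none past the threshold, turned sign: with the GC trend removed CCL20 to −0.051, LIF to 0.13, IL32 to 0.12, RELA to 0.175 and RELB to 0.33, with library size alone RELB to 0.033, with no filter RELB to 0.00035, and with a mean count of at least 50 TNFAIP2 to −0.005. With the GC trend removed CCL2 also moved from 0.28 to 0.13 and ICAM1 from −0.38 to −0.17, with no turn of sign. Other changes grew, such as CSF1 from 0.15 to 0.41, IGFBP4 from 0.07 to 0.37 and TNFAIP2 from 0.01 to 0.30. The median of the 33 genes went from 0.11 to 0.23. With 1 hairpin library left out, no count of calls could be made, since no residual degree of freedom remained. The change of IL1R1 was 1.19 with shRNA 2 alone and 1.41 with shRNA 1 alone, and that of SERPINE2 0.41 and 0.93. Summed, CXCL1, CXCL2 and CXCL3 changed by 0.58 on the log2 scale (adjusted p = 0.0676, edgeR). No paired analysis was possible because WT has 1 library, so the groups share fewer than 2 replicate numbers. In the simulation 16.4% of the 67 genes changed 1.5-fold were recovered.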
